A study of Mus musculus with 10 samples.

Results

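A set of 10 genes of the neuronal cytoskeleton and of early neuronal maturation, of 48972 genes with a count table, were followed in YFP-positive cells sorted from the mouse spinal cord at e10.5. They were taken by name: Tubb3, Stmn2, Dcx, Nefl, Nefm, Nefh, Prph, Gap43, Map2 and Mapt. All 10 were measured and all 10 passed the filter on low counts. The study asked which genes depend on the Onecut (Oc) transcription factors in differentiating motor neurons (MNs), and compared 5 control with 5 conditional double knockout (cdKO) samples by RNA sequencing. All samples were Olig2-Cre+/- and Rosa26R-YFP+/-. The control samples were Oc1+/Flox and Oc2+/Flox, so that where Cre had acted they too had a single deleted allele of each gene. The cdKO samples were Oc1-/Flox and Oc2-/Flox. Cre was driven by Olig2, which is made in MN progenitors, so YFP marks the lineage of cells that made it and not MNs alone. The paper also saw YFP ventral to the MNs, in cells it assigns to V3 interneurons. It proposes that these likely come from p3 progenitors that made Olig2 for a short time. The sources used here do not say whether a sample was 1 embryo or a pool, and p-values measure only the spread between these samples.

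Microtubules are built from dimers of alpha and beta tubulin, and newborn neurons switch on a neuron-specific beta tubulin together with proteins that steer or stabilise the growing polymer. Neurofilaments fill and widen the axon as it matures, in an order that starts with the light and medium chains and ends with the heavy chain. These genes are therefore read as signs that a cell has left the progenitor pool and begun to extend an axon.

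Values are CPM, the usual counts-per-library unit of RNA-seq, with library sizes scaled by the TMM method. The deposited tables held between 63932395 and 107709534 counts in control and between 72315782 and 84249157 in cdKO samples, a read being counted on every piece of exon (bin) it touched. Control replicate 5 and cdKO replicate 5 stood apart from the other 8 libraries, as described below, and results that rest on them are given with and without them. The targeted genes were checked first. Oc3 (Onecut3), the other member of the family, had 68, 39, 29, 39 and 36 counts in control replicates 1 to 5 and 3, 1, 1, 0 and 0 counts in cdKO replicates 1 to 5. Its log2 fold change was -5.08 (edgeR's adjusted p = 0.111). Onecut1 averaged 5.84 ± 2.82 CPM in control against 2.71 ± 1.26 CPM in cdKO samples (SD, n = 5 each) (log2 fold change -1.11, edgeR's adjusted p = 0.938), and Onecut2 averaged 4.80 ± 3.34 CPM in control against 6.91 ± 7.14 CPM in cdKO samples (SD, n = 5 each) (log2 fold change 0.52, edgeR's adjusted p = 0.997). In its own differential test of the RNA sequencing, the paper lists Oc1 (Onecut1) and Oc3 as reduced in cdKO cells, each with an adjusted p under 0.05. The paper describes the Oc2 sequences it detected as truncated transcripts that yield no functional peptide. By staining, it reports the Onecut proteins lost from Isl1-positive MNs of cdKO embryos. The motor neuron markers summed to between 531 and 693 CPM in control and between 309 and 791 CPM in cdKO samples, led by Isl1, Lhx3 and Isl2, and were detected in every library. Progenitor markers, led by Hes5, Vim and Fabp7, summed to between 1975 and 2786 CPM in control and between 1819 and 3741 CPM in cdKO samples, and cycling-cell markers, led by Ccnb1, Mcm5 and Pcna, to between 1293 and 2559 CPM in control and between 1308 and 2161 CPM in cdKO samples. In such mixed cells, fewer neurons and less RNA of a gene per neuron cannot be told apart.

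The genes differed in level widely once counts were divided by length. Per 1000 exonic bases, the mean over the 10 samples was 395 CPM for Tubb3, 232 for Nefl, 227 for Gap43, 132 for Stmn2 and 77.3 for Nefm. Prph followed at 29.6 CPM per 1000 bases, Mapt at 7.61, Map2 at 7.34, Dcx at 3.86 and Nefh at 0.283. The annotated exonic length, 1868 bases for Tubb3 and 16449 for Map2, includes stretches that few of these cells use, so the density on the densest bin of at least 200 bases was set beside it. On that scale Nefl came first with 485 CPM per 1000 bases and Tubb3 second with 409.6, and the other 8 genes kept their places. The order of Nefl and Tubb3 thus turned on how length was counted, and Map2 and Mapt, at 7.34 and 7.61 CPM per 1000 exonic bases, were closer to each other than the spread of either over samples.

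Tubb3 encodes the neuron-specific beta tubulin and lies at chr8:123411424-123422015 on the plus strand of GRCm38 (ENSMUSG00000062380). Tubb3 was at 960.3, 1046, 449, 574 and 139.8 CPM in control replicates 1 to 5 and at 1551, 432, 919, 509 and 797 CPM in cdKO replicates 1 to 5. Control replicate 5 was lowest and cdKO replicate 1 highest, and the other samples of both groups lay in the same range. The control mean was 634 ± 374 CPM and the cdKO mean 842 ± 445 CPM (SD, n = 5 each), for a log2 fold change of 0.41 (95% interval -0.64 to 1.46; adjusted p = 0.997, edgeR; exact permutation p = 0.444).

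Stmn2 (SCG10) is a tubulin-binding protein of growing axons and Dcx (doublecortin) stabilises microtubules in young and migrating neurons. Stmn2 (ENSMUSG00000027500; chr3:8509360-8561606, plus strand) had its highest value in cdKO replicate 5. Stmn2 was at 884, 557, 375, 428 and 110.4 CPM in control replicates 1 to 5 and at 812, 343, 828, 519.9 and 2545 CPM in cdKO replicates 1 to 5. The control mean was 471 ± 282 CPM and the cdKO mean 1009.7 ± 882 CPM (SD, n = 5 each), for a log2 fold change of 1.10 (95% interval -0.13 to 2.33; adjusted p = 0.938, edgeR; exact permutation p = 0.206). The next highest sample, control replicate 1, had 884 CPM, and the other samples of both groups overlapped. Without replicate 5 of both groups the log2 fold change of Stmn2 was 0.15 (95% interval -0.61 to 0.90). Dcx (ENSMUSG00000031285; chrX:143855842-143933311, minus strand) ranged from 17.2 to 97.5 CPM. Dcx was at 73.9, 29.0, 50.5, 60.5 and 17.2 CPM in control replicates 1 to 5 and at 26.7, 24.5, 46.0, 62.0 and 97.5 CPM in cdKO replicates 1 to 5. The groups overlapped over most of this range, with a log2 fold change of 0.15 with a 95% interval of -0.83 to 1.13 (edgeR's adjusted p = 0.998), and the sign turned to -0.44 (95% interval -1.24 to 0.36) without replicate 5 of both groups.

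**Figure D1:**
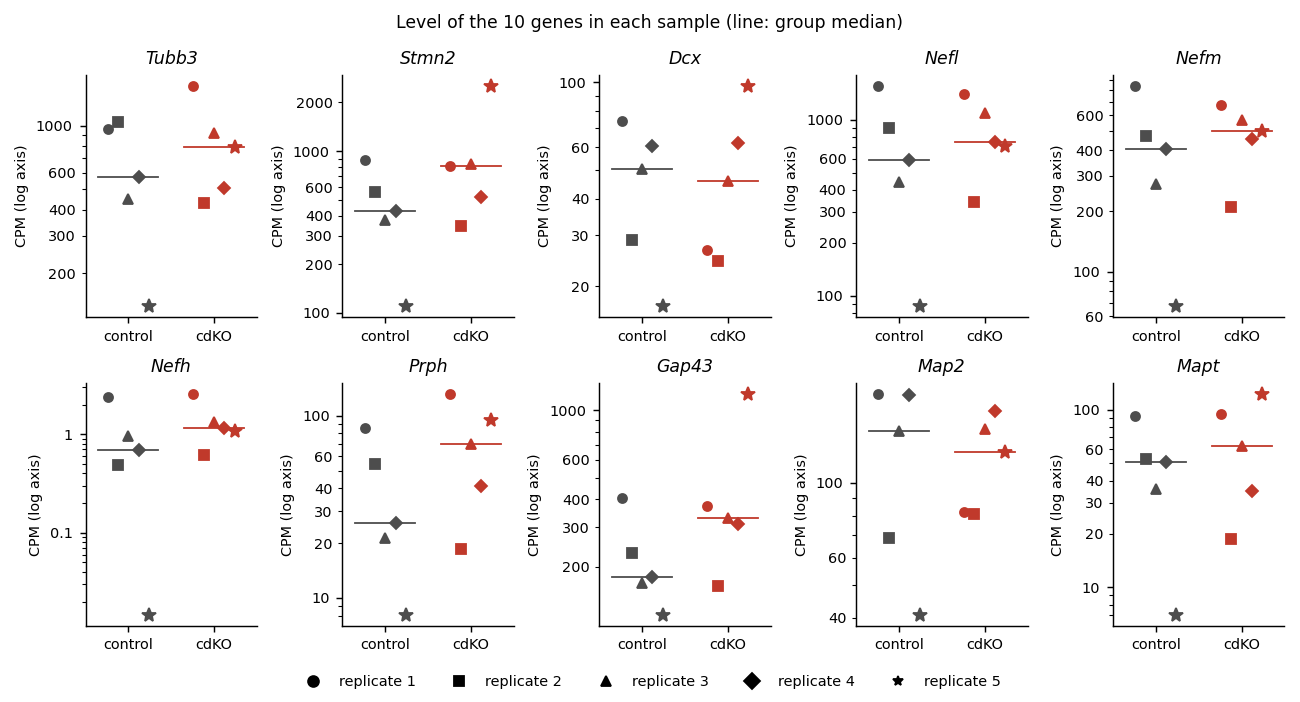
CPM (log axis) of each of the 10 genes in the 5 control (grey) and 5 cdKO (red) samples, 1 symbol per replicate number, with a line at the group median. Control replicate 5 is the lowest point in all 10 panels, and cdKO replicate 5 is the highest for Stmn2, Dcx, Gap43 and Mapt.

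The 4 intermediate filament genes were the neurofilament light (Nefl), medium (Nefm) and heavy (Nefh) chains and peripherin (Prph), a filament of neurons that send axons out of the central nervous system, MNs among them. Nefl (ENSMUSG00000022055; chr14:68083863-68089095, plus strand) is the partner with which the other chains assemble. Nefl was at 1560.1, 892, 442, 586 and 87.3 CPM in control replicates 1 to 5 and at 1396, 342, 1088, 748 and 703 CPM in cdKO replicates 1 to 5. It was lowest in control replicate 5 and highest in control replicate 1, with a log2 fold change of 0.26 with a 95% interval of -0.97 to 1.49 (edgeR's adjusted p = 0.997). Nefm (ENSMUSG00000022054; chr14:68082590-68124846, minus strand) shares counts with Nefl. Its bin at chr14:68082590-68084970 overlaps the first exon of Nefl on the opposite strand, and since counting ignored strand, the 52.2% of Nefm counts on that bin cannot be told apart from Nefl. The overlapped bin of Nefl, in turn, held 31.1% of the Nefl counts. On its remaining bins Nefl averaged 481 ± 375 CPM in control against 616 ± 260.0 CPM in cdKO samples (SD, n = 5 each), with a log2 fold change of 0.37 (95% interval -0.84 to 1.58). On the remaining bins Nefm was at 368, 184, 136, 229 and 43.4 CPM in control replicates 1 to 5 and at 228, 108.4, 246, 232 and 465 CPM in cdKO replicates 1 to 5. The mean of these bins was 192 ± 120.2 CPM in control against 256 ± 129 CPM in cdKO samples (SD, n = 5 each, with an exact permutation p of 0.373). The log2 fold change was 0.22 over all bins and 0.43 (95% interval -0.63 to 1.49) over bins of no other gene, so neither count separated the groups.

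Nefh (ENSMUSG00000020396; chr11:4938754-4948064, minus strand), the last chain to appear, had the lowest level of the 10 genes, with 239, 51, 85, 51 and 1 counts in control replicates 1 to 5 and 200, 52, 109, 97 and 55 in cdKO replicates 1 to 5. The single count of control replicate 5 lay under the floor of 3 counts, the level that an observed count of 0 would still allow. In the other 9 samples Nefh stood between 0.489 and 2.54 CPM, and the groups gave a log2 fold change of 0.56 with a 95% interval of -1.09 to 2.20 (edgeR's adjusted p = 0.997). That value was 1.31 without control replicate 1, 0.24 without control replicate 5, 0.19 without cdKO replicate 1, 1.32 by limma-voom and 1.03 with the replicate number as a block, and none of these passed the threshold. Per exonic base and over bins of no other gene, Nefh was 0.000931 ± 0.000661 times Nefl in control and 0.00124 ± 0.000277 times Nefl in cdKO samples (SD, n = 5). Nefm on the same scale was 0.314 ± 0.106 times Nefl in control and 0.288 ± 0.113 in cdKO samples (SD, n = 5). Light, medium and heavy chains thus stood in the same descending order in every library. Prph (ENSMUSG00000023484; chr15:99055174-99058978, plus strand) was lowest in control replicate 5 and highest in cdKO replicate 1. Prph was at 85.6, 54.1, 21.3, 25.9 and 8.09 CPM in control replicates 1 to 5 and at 131, 18.5, 70.4, 41.2 and 95.3 CPM in cdKO replicates 1 to 5. The control mean was 39.0 ± 31.0 CPM and the cdKO mean 71.3 ± 44.3 CPM (SD, n = 5 each), for a log2 fold change of 0.87 (95% interval -0.41 to 2.15; adjusted p = 0.982, edgeR; exact permutation p = 0.222).

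Gap43, a membrane protein of growth cones, is encoded at chr16:42248442-42340651 on the minus strand (ENSMUSG00000047261). Gap43 was at 405, 229, 170.3, 180.4 and 122 CPM in control replicates 1 to 5 and at 375, 164, 331, 312 and 1175 CPM in cdKO replicates 1 to 5. cdKO replicate 5 lay above all other samples, and its nearest neighbour, control replicate 1, had 405 CPM. The control mean was 222 ± 109.5 CPM and the cdKO mean 471 ± 401 CPM (SD, n = 5 each), for a log2 fold change of 1.09 (95% interval 0.03 to 2.15; adjusted p = 0.938, edgeR; exact permutation p = 0.135). Gap43 was the single gene of the 10 with an unadjusted p under 0.05 (0.045, edgeR), a level reached by 4.17% of all genes tested in the higher and 0.813% in the lower direction. Without cdKO replicate 5 its log2 fold change was 0.41 (95% interval -0.37 to 1.19), and without replicate 5 of both groups it was 0.25 (95% interval -0.48 to 0.98). The unadjusted edgeR p of Gap43 was 0.0855 with library size only, 0.146 with the replicate block and 0.0798 over the last 1000 exonic bases. It was 0.0965 on the highest bin (edgeR) and 0.0871 by limma-voom. By edgeR it was 0.0439 with DESeq2 size factors, 0.0363 without a filter and 0.0434 over bins of no other gene. The DESeq2 Wald test gave 0.0351. The exact permutation test can give no p below 0.00794 with 5 samples against 5.

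Map2 and Mapt (tau) bind along microtubules, Map2 mainly in cell bodies and dendrites and Mapt in axons once neurons are polarised. Map2 (ENSMUSG00000015222; chr1:66175273-66442583, plus strand) was the gene whose mean was not higher in cdKO samples. Map2 was at 182, 68.8, 142, 181 and 40.8 CPM in control replicates 1 to 5 and at 81.8, 81.0, 144, 162 and 124 CPM in cdKO replicates 1 to 5. The control mean was 123 ± 65.2 CPM and the cdKO mean 118 ± 36.5 CPM (SD, n = 5 each), for a log2 fold change of -0.06 (95% interval -0.92 to 0.81; adjusted p = 0.998, edgeR; exact permutation p = 0.833). Mapt (ENSMUSG00000018411; chr11:104231390-104332090, plus strand) had a wider range. Mapt was at 92.0, 52.6, 36.1, 50.6 and 7.02 CPM in control replicates 1 to 5 and at 95.4, 18.7, 63.0, 34.9 and 123 CPM in cdKO replicates 1 to 5. The control mean was 47.7 ± 30.8 CPM and the cdKO mean 66.9 ± 42.7 CPM (SD, n = 5 each), for a log2 fold change of 0.49 (95% interval -0.77 to 1.75; adjusted p = 0.997, edgeR; exact permutation p = 0.508). Control replicate 5 was lowest for both genes, and the other 9 samples interleaved. Of the Map2 counts, 5.62% lay on bins that an antisense gene also covers.

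The comparison of cdKO with control samples called none of the 10 genes. Of 17835 genes tested by edgeR's quasi-likelihood test, 0.0% passed an adjusted p of 0.05 in either direction, and 888 had an unadjusted p under 0.05. The DESeq2 Wald test passed 19 genes and limma-voom 3, and neither passed any of the 10. The log2 fold change was above 0 for 9 of the 10 genes, against 48.2% of all genes tested, with a median of 0.45 against -0.02. That count was 6 of 10 without control replicate 5 and 6 of 10 without replicate 5 of both groups, and between 8 and 10 of 10 in the other 18 alternatives. It was 10 of 10 by limma-voom, with the replicate block, and without control replicate 1, control replicate 4, cdKO replicate 1 or cdKO replicate 2. None of the 10 separated the groups without overlap, as 0.179% of all genes did in the higher and 0.224% in the lower direction. Scaling by library size alone moved the median of all genes to -0.15, and left 8 of the 10 above 0. Under that scaling 380 genes were higher and 253 lower at an unadjusted p under 0.05, against 743 and 145 with TMM. At this spread the 95% intervals of single genes reached as far as -1.09 and 2.33, and a p that misses the threshold does not show that the levels were alike.

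**Figure D2:**
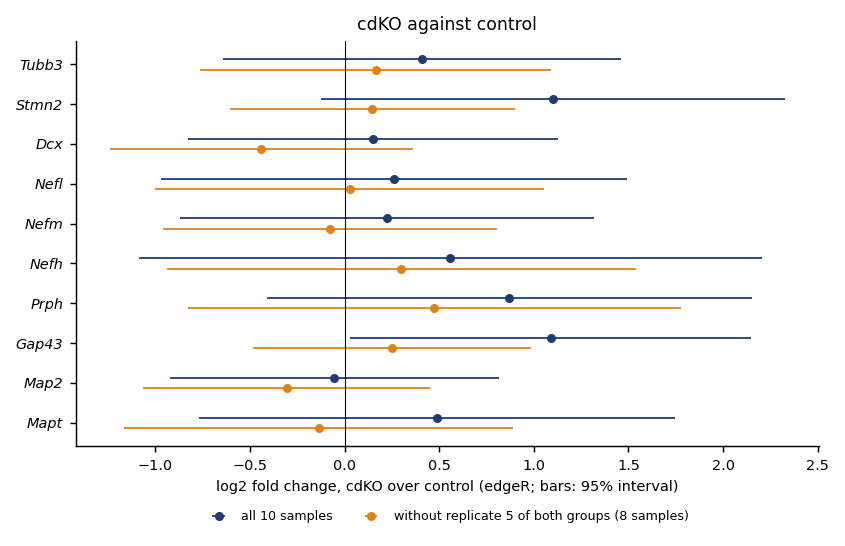
Log2 fold change of cdKO over control (x axis) for each gene (y axis) with its 95% interval from edgeR, over all 10 samples (blue) and without replicate 5 of both groups (orange). Only the interval of Gap43 over all 10 samples, 0.03 to 2.15, lies beyond 0, and every interval of the 8-sample fit includes 0.

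The samples differed from one another more than the groups did. The within-group SD of log2(CPM + 0.5) had a median of 1.02 over the 10 genes, larger than that of 94.7% of all genes tested, whose median was 0.53. Among the 10174 genes with a mean of at least 5 CPM it was larger than that of 92.8%. The mean deviation of the 10 genes from their 10-sample mean (log2) ordered the samples from control replicate 5 at -2.0, cdKO replicate 2 at -0.77, control replicate 3 at -0.33 and control replicate 4 at -0.06 up to control replicate 2 at 0.02, cdKO replicate 4 at 0.13, cdKO replicate 3 at 0.49, cdKO replicate 1 at 0.70, control replicate 1 at 0.89 and cdKO replicate 5 at 0.93. Both groups thus held samples with high and with low levels of these genes, and leaving control replicate 5 aside they covered much the same range.

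Control replicate 5 was the lowest of the 10 samples for 10 of the 10 genes, where 16.3% of all genes tested were lowest in that library. It gave 87.3 CPM of Nefl against 342 in the next lowest sample, and 139.8 CPM of Tubb3 against 432. Cycling-cell markers had their highest sum in the same library, at 2559 CPM. They did not all rise, since 3 of the 6 had their highest value there. Mcm5, the 1 below its control mean, was at 404 CPM against 426. Mki67, a proliferation marker, stood there at 75.7 CPM against a control mean of 31.7. Of the 8 motor neuron markers, 7 were below their control mean there, and 4 had their lowest value of the 10 samples. The LIM factors Isl2 and Lhx3 were at 57.9 and 52.6 CPM against control means of 106 and 96.6, the vesicular acetylcholine transporter Slc18a3 was at 20.9 against 86.7 and Chat, which makes acetylcholine, at 2.54 against 7.77. The exception was Isl1, which begins as MNs are born, at 347 CPM against 225. Among the markers of p3 progenitors and V3 interneurons, cells that the YFP-positive lineage can include, Nkx2-9, a gene of the most ventral progenitors, was at 84.5 CPM against 26.3 and Nkx2-2 at 15.1 against 9.80, whereas Sim1, a V3 gene, was at 0.148 CPM, the lowest of the 10 samples, against 2.67. The 3 genes summed to between 21.3 and 99.7 CPM in control and between 18.5 and 38.7 CPM in cdKO samples. The part of these differences in the levels of the 10 genes was not tested.

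**Figure D3:**
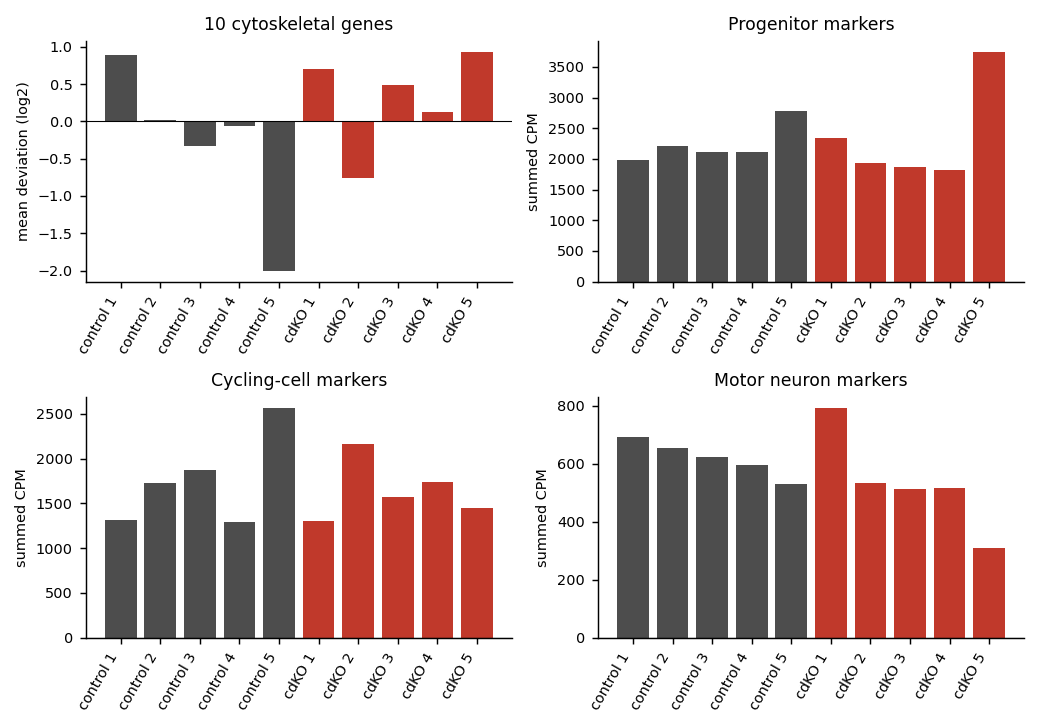
For each of the 10 samples (control grey, cdKO red), the mean log2 deviation of the 10 genes from their 10-sample mean and the summed CPM of the progenitor, cycling-cell and motor neuron marker lists. Control replicate 5 has the lowest bar for the 10 genes (-2.0) and the highest for cycling-cell markers (2559 CPM), and cdKO replicate 5 has the highest bars for the 10 genes (0.93) and for progenitor markers (3741 CPM).

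In cdKO replicate 5, 4 of the 10 genes were highest, where 29.5% of all genes tested were highest in that library. Its TMM factor was 0.717, against 0.947 to 1.17 in the other 9 samples. A factor below 1 raises every CPM of a library above its value by library size alone. Coverage in that library was shifted towards the 3′ ends of transcripts. The share of a gene's counts in its last 1000 exonic bases was 87.1% for Tubb3 against 60.1% to 67.8% in the other 9 samples. It was 77.6% for Dcx against 11.7% to 33.4%, 75.7% for Nefl against 30.9% to 38.3%, and 57.7% for Map2 against 18.9% to 25.3%. Stmn2 and Gap43, the genes furthest above the other samples there, had 26.0% and 91.5%, against 21.9% to 30.3% and 89.3% to 90.1%. Gap43 has only 1523 exonic bases and most of its counts in that window in every sample, so its share had little room to rise. Most Stmn2 counts lay outside the window, as did those of Dcx, Nefl and Map2 in the other 9 samples. The Stmn2 share showed no rise in cdKO replicate 5, unlike the shares of those genes. Whether Stmn2 coverage shifted outside this window was not tested. Counted over the last 1000 exonic bases alone, the log2 fold change was 0.68 for Stmn2 (95% interval -0.38 to 1.75) and 0.80 for Gap43 (95% interval -0.11 to 1.71). Progenitor markers summed to 3741 CPM in cdKO replicate 5, the highest of the 10 samples, and motor neuron markers to 309, the lowest. Only 3 of the 8 motor neuron markers had their lowest value of the 10 samples in that library. The progenitor markers did not move as 1, since 5 of the 8 were highest there and Olig2 was lowest. Olig2 was at 26.3 CPM against a control mean of 66.0, and Pax6 at 48.8 against 58.5. The part of the 3′ shift in the level of each gene was not tested.

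**Figure D4:**
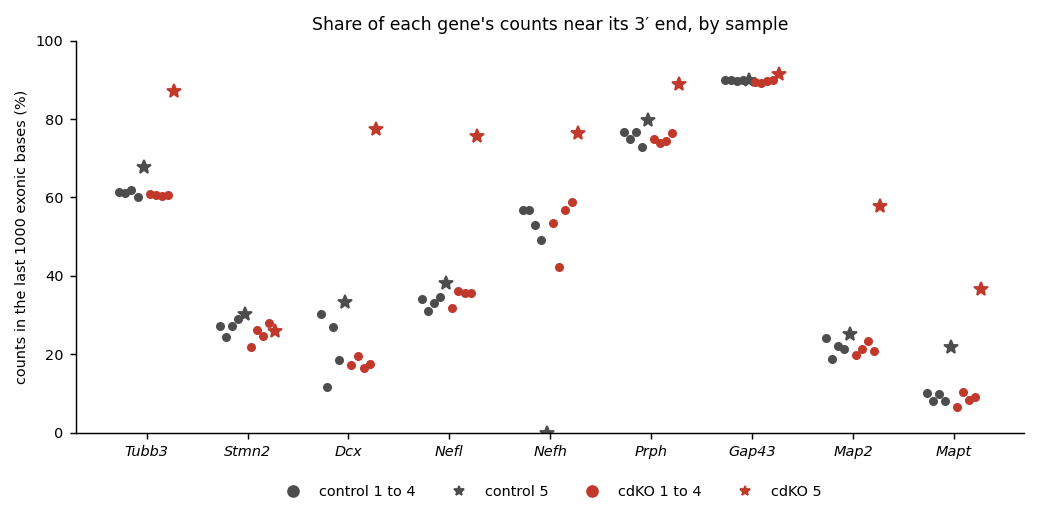
Share of each gene's counts (y axis, percent) in its last 1000 exonic bases, by sample, for 9 genes, with stars for replicate 5 of each group. Nefm is left out because its most 3′ bin is the one shared with Nefl. The cdKO replicate 5 star lies above all other points for 8 genes, with 77.6% for Dcx and 57.7% for Map2, and within the other points for Stmn2 at 26.0%. The point of Nefh at 0% in control replicate 5 rests on 1 count.

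The genes moved together to differing degrees. Over the 10 samples, Pearson's r between a gene's deviation from its group mean and the mean deviation of the other 9 was 0.976 for Mapt, 0.959 for Nefm, 0.920 for Prph, 0.917 for Nefl and 0.904 for Stmn2. It was 0.862 for Tubb3, 0.826 for Nefh, 0.747 for Gap43, 0.681 for Dcx and 0.632 for Map2. Without replicate 5 of both groups (8 samples), Nefm was at 0.981, Nefl at 0.970, Gap43 at 0.967 and Stmn2 at 0.964, while Dcx was at 0.292 and Map2 at 0.190. These r are descriptions over samples that share libraries, depth and scaling, and Nefm shares counts with Nefl. Dcx and Map2, with 12647 and 16449 exonic bases, were the longest of the 10 genes, and were both low in control replicate 2 and cdKO replicate 1, where Tubb3 had its highest levels. Per exonic base, Dcx was 0.00409 times Tubb3 in control replicate 2 and 0.00255 times in cdKO replicate 1, against 0.00739 to 0.0181 times in the other 8 samples.

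Among 10165 other genes with a mean of at least 5 CPM, those whose deviations over the 10 samples were most like the mean of the 10 genes were Scg2 (r = 0.992), Tes (0.987), Bcl11a (0.971), Shc4 (0.970), 2900011O08Rik (0.967), Scn3b (0.966), Cdo1 (0.963) and Oprl1 (0.960). Scg2 encodes a granin of secretory vesicles, Scn3b a sodium channel beta subunit, Bcl11a a zinc finger transcription factor and Oprl1 the nociceptin receptor. Scg2 was at 30.7, 13.5, 8.06, 11.8 and 0.872 CPM in control replicates 1 to 5 and at 27.8, 5.38, 19.5, 13.7 and 24.6 in cdKO replicates 1 to 5. The most opposite genes were Pipox (r = -0.963), Siah1b (-0.962), Rassf1 (-0.957), Myc (-0.956) and Tube1 (-0.951). Tube1 encodes epsilon tubulin, a centriole component, and had 55.1 CPM in control replicate 5 against 13.5 in cdKO replicate 5. Myc, a growth and proliferation factor, had 25.4 CPM in control replicate 5 and 2.95 in cdKO replicate 5. These r are descriptions over 10 samples that share libraries and scaling.

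Map2 and Mapt are spliced differently in young and in mature neurons, and the exon bins let this be read. Map2 holds an exon of 93 bases that adds a further microtubule-binding repeat to the protein, and immature neurons mostly lack it. Mapt has a pair of exons of 87 bases near its start, which lengthen the amino-terminal projection, and a long exon typical of peripheral neurons. The long exon of Map2 distinguishes the high-molecular-weight protein from the juvenile short form. The sequences of the short exons are shown 5′ to 3′ on the plus strand of GRCm38, from GENCODE transcripts, because the counts below rest on them.
Map2, 93 bases, chr1:66431527-66431619: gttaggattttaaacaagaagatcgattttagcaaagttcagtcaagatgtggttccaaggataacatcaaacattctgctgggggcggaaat
Mapt, 87 bases, chr11:104287123-104287209: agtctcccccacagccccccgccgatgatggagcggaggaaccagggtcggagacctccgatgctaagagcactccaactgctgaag
Mapt, 87 bases, chr11:104289908-104289994: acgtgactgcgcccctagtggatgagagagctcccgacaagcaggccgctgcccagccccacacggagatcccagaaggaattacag

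Each exon was set against the mean count of the nearest exons on its left and right that are in every coding transcript of the basic annotation. Over the 10 samples, the 93-base exon of Map2 had 65 counts, 2.48% of its flanking exons. The first and second 87-base exons of Mapt had 10 and 22 counts in all, 0.432% and 0.951% of their flanks, and its long exon of 759 bases had 41, 1.70%. All 4 of these exons stood far below their flanks when the samples were pooled. The long exon of Map2, 3741 bases at chr1:66412407-66416147, stood apart, at 54.7%, 45.3%, 25.5%, 72.4% and 43.1% of its flanks in control replicates 1 to 5 and 65.6%, 36.9%, 79.8%, 72.0% and 65.1% in cdKO replicates 1 to 5. This last value is no share of transcripts, since the bin read was 850 bases long and a longer bin is touched by more reads. The annotation places the 93-base exon of Map2 in 2 of its 7 basic coding transcripts and the long exon of Map2 in 1 of 7.

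No exon passed a p of 0.05 between groups by the exact two-sided permutation test of log2 of the exon count plus 0.5 over its flanks. The difference of cdKO minus control, n = 5 each, was 0.44 (p = 0.198) for the long exon of Map2 and -0.75 (p = 0.159) for its 93-base exon in that exact test. By the same exact test it was -1.07 (p = 0.222) for the long exon of Mapt and -0.01 (p = 0.992) for its second 87-base exon. The first 87-base exon had 1, 3, 0, 3 and 3 counts in control replicates 1 to 5 and 0 in every cdKO sample. Pooled, this was 0.819% of its flanks in control and 0% in cdKO samples, where a floor of 3 counts over the group allows up to 0.275%. Its difference of -2.08 (p = 0.0873) by the exact test is set by the added 0.5 and the depth of the flanks and is no bound, and it was -1.21 (exact permutation p = 0.167) without control replicate 5. These exons had 0 to 14 counts a sample outside the Map2 long exon, which limits what could be detected. Leaving out 1 sample moved the difference past 0.05 for the Map2 93-base exon without cdKO replicate 2 (-1.07, exact permutation p = 0.0397) and for the long Mapt exon without cdKO replicate 3 (-1.73, exact permutation p = 0.0238).

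**Figure D5:**
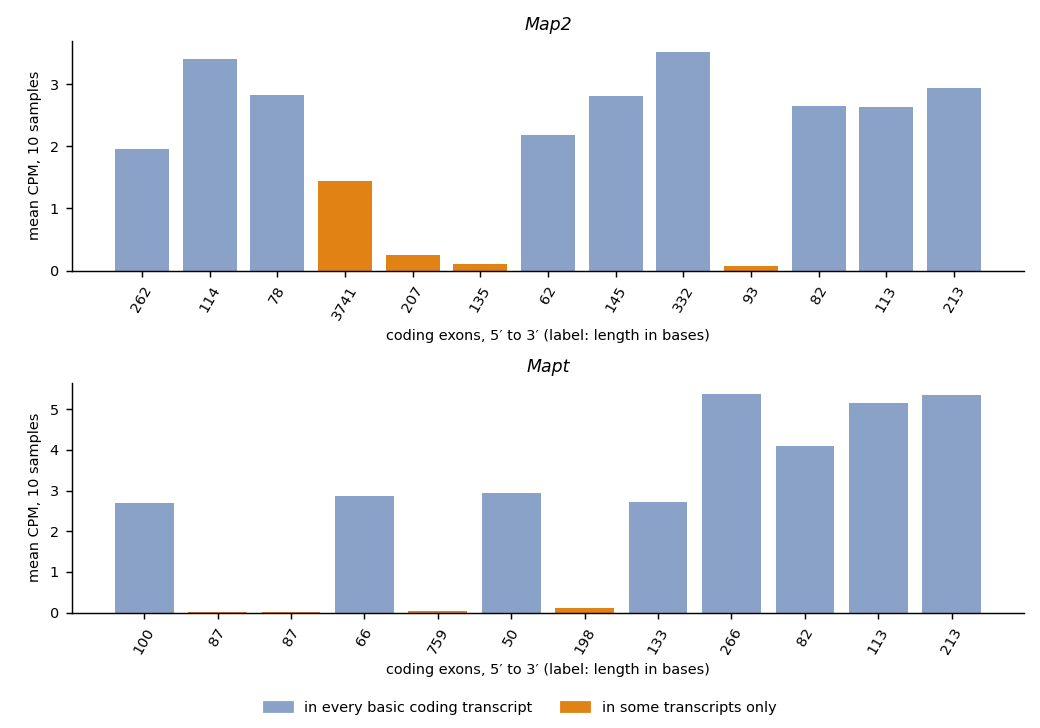
Mean CPM over the 10 samples on the most covered bin of the coding exons of Map2 (top) and Mapt (bottom), 5′ to 3′, labelled by exon length in bases. Exons present in only some transcripts are orange, and all but the 3741-base exon of Map2 lie far below the blue exons found in every basic coding transcript.

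Genes of the same machinery were read in 7 lists, in which no gene passed the adjusted p of 0.05 either. The lists differed in direction, with median log2 fold changes from -0.07 to 0.62. All 11 tubulins tested, without Tubb3, had a median log2 fold change of 0.27, with 7 above 0, and 4 of 11 were lowest in control replicate 5. The largest absolute log2 fold changes were those of Tuba1a (log2 fold change 0.46, edgeR's adjusted p = 0.997), the alpha tubulin of young neurons, at 9867 ± 4959 CPM in control against 13551 ± 5804 CPM in cdKO samples (SD, n = 5 each), and Tuba1b (log2 fold change 0.32, edgeR's adjusted p = 0.997). The 5 stathmins and doublecortin-like genes had a median of 0.62, with 3 above 0. Stmn3 (log2 fold change 1.23, edgeR's adjusted p = 0.938) was at 1018 CPM in cdKO replicate 5 against a control mean of 194, and Stmn4 averaged 134 ± 78.3 CPM in control against 248 ± 72.1 CPM in cdKO samples (SD, n = 5 each) (log2 fold change 0.89, edgeR's adjusted p = 0.938). The 11 microtubule-associated proteins had a median of -0.02, with 5 above 0. Map1b, an early microtubule-associated protein of axons, averaged 626 ± 281 CPM in control against 308 ± 113 CPM in cdKO samples (SD, n = 5 each) (log2 fold change -1.02, edgeR's adjusted p = 0.938), and Tppp3 averaged 166 ± 77.1 CPM in control against 293 ± 137 CPM in cdKO samples (SD, n = 5 each) (log2 fold change 0.82, edgeR's adjusted p = 0.938). Of the intermediate filaments of neural cells, 4 of 5 were tested, with a median of 0.20, and Gfap was not tested. The largest values there were those of Sync (log2 fold change 0.59, edgeR's adjusted p = 0.997) and Vim (log2 fold change 0.24, edgeR's adjusted p = 0.997). Without replicate 5 of both groups the median was 0.15 for the tubulins, with 11 of 11 above 0. It was 0.07 for the stathmins and doublecortin-like genes, with 3 of 5 above 0. The microtubule-associated proteins then had a median of -0.03 (4 of 11 above 0) and the intermediate filaments -0.19 (1 of 4).

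The 11 growth cone and CRMP genes, which link guidance signals to the cytoskeleton, had a median log2 fold change of 0.10, with 8 above 0. The 2 furthest from 0 were Dpysl2 (log2 fold change 0.91, edgeR's adjusted p = 0.961) and Rtn1 (log2 fold change 0.76, edgeR's adjusted p = 0.961), and cdKO replicate 5 held 213 CPM of Dpysl2 against a control mean of 36.1. The 12 axonal transport motors had a median of -0.07, with 6 above 0, and had their largest absolute values in Kif5b (log2 fold change -0.66, edgeR's adjusted p = 0.997) and Dync1h1 (log2 fold change -0.44, edgeR's adjusted p = 0.961). The 15 early pan-neuronal genes had a median of 0.14, with 9 above 0 and 9 of 15 lowest in control replicate 5. Without replicate 5 of both groups their median was -0.25, with 4 of 15 above 0. In that fit the growth cone and CRMP genes had a median of -0.10 (5 of 11 above 0) and the axonal transport motors -0.33 (2 of 12). Snap25, a protein of vesicle release, averaged 54.7 ± 27.2 CPM in control against 30.4 ± 10.3 CPM in cdKO samples (SD, n = 5 each) (log2 fold change -0.85, edgeR's adjusted p = 0.938), and Uchl1, a neuronal ubiquitin hydrolase, averaged 177 ± 71.8 CPM in control against 306 ± 211 CPM in cdKO samples (SD, n = 5 each) (log2 fold change 0.79, edgeR's adjusted p = 0.952). At an unadjusted p under 0.05, these 7 lists held 1 gene higher, Stmn4, and 2 lower, Map1b and Snap25, against the 4.17% and 0.813% of all genes given above.

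Markers of cells outside the sorted lineage were detected at low levels. Erythroid markers, led by Hbb-y, Hba-x and Hbb-bh1, summed to between 0.901 and 19.1 CPM in control and between 2.91 and 66.1 CPM in cdKO samples, highest in cdKO replicate 5, and 6 of 9 were tested. Their log2 fold change was above 0 for 6 of 6, with a median of 2.08, and 2 had an unadjusted p under 0.05. Without replicate 5 of both groups 6 of 6 were above 0, with a median of 0.66. Mesenchymal markers (6 of 6 tested) summed to between 6.14 and 18.3 CPM in control and between 9.74 and 21.3 CPM in cdKO samples. They were likewise above 0 for 6 of 6, with a median of 0.61, and 2, Col1a2 and Twist1, had an unadjusted p under 0.05. Without replicate 5 of both groups 5 of 6 were above 0, with a median of 0.36. No marker of either list passed the adjusted p, and the part of such cells in the fold changes of the 10 genes, 9 of which were also above 0, was not tested. Endothelial markers (2 of 4 tested) summed to between 0.930 and 3.25 CPM in control and between 0.940 and 2.09 CPM in cdKO samples, and macrophage markers (1 of 5) to between 3.14 and 5.17 CPM in control and between 3.30 and 6.93 CPM in cdKO samples. Of the macrophage genes only Csf1r passed the filter, Cx3cr1 had no count in any cdKO sample and C1qb none in any control sample. Sensory ganglion and neural crest markers, whose cells also make Prph and the neurofilaments, summed to between 45.0 and 64.8 CPM in control and between 21.5 and 58.8 CPM in cdKO samples over 6 genes, of which Sox10 and Foxd3 were too low to be tested. That sum was lowest in cdKO replicate 5, at 21.5 CPM, where Prph was at 95.3 CPM.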

How the data were processed

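Per the labels, the authors used bcl2fastq 2.17, Trimmomatic 0.36, STAR 2.5.2b, Subread 1.5.2 and DESeq2 on GRCm38. The authors deposited whole-number counts per exon bin, not normalized, with a read counted on each bin it overlapped and on either strand, so totals are not reads. The annotation release is not given in the sources used here. Bins were summed per gene with GENCODE M21, and 3988 bins that fit no single gene, 1.17% of the counts, were not used. TMM scaling and the quasi-likelihood test of edgeR 4.0.16 (R 4.3.3) were applied after filterByExpr with a minimum count of 10, with Benjamini-Hochberg adjustment over all genes and a threshold of 0.05. 1 exon is not reported here. Exact two-sided permutation tests ran over 252 arrangements. Fits were tested on simulated data. DESeq2 1.42.0 and limma 3.58.1 were alternatives. Replicates came from the sample titles. No pair within a group was a duplicate (chi-square per degree of freedom 126 or more over 20 pairs). Members and lists were chosen with earlier results of these data known. Besides the 10 members and the targeted genes, genes were named if they passed the threshold or were among the 2 largest absolute log2 fold changes of a pathway list, led a marker list (up to 3), or were the 8 most and 5 least like the members. A few, such as Mki67, Slc18a3 and Chat, were chosen after their values were seen. The floor of 3 counts covers counting error only, since reads are not independent molecules.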

Additional observations from a re-analysis of the deposited data

Results flagged for a closer look

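In 73 groups of 5 samples, covering the level of each gene, marker sums, 3′ shares and exon values, 18 had a sample whose gap to its nearest neighbour was above Dixon's 95% critical value of 0.71 of the range. Chance alone gives about 1 in 20, or 3.65 of 73. Of the 18, 10 were in cdKO replicate 5, 6 in control replicate 5 and 2 elsewhere.

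In cdKO replicate 5, Stmn2 stood at 2545 CPM against 827.9 in the next cdKO sample, Gap43 at 1175 against 375.3, and the sum of progenitor markers at 3741 against 2349. Olig2 of that marker list was at its lowest of the 10 samples in this library, at 26.3 CPM. The shift of coverage towards the 3′ end, the median over 10238 genes of how far the mean position of a gene's counts lay from its 10-sample mean as a fraction of exonic length, was 0.0736 there and at most -0.0075 in the other cdKO samples. The share of counts in the last 1000 exonic bases was 87.1% for Tubb3, 77.6% for Dcx, 75.7% for Nefl, 89.0% for Prph, 57.7% for Map2 and 36.7% for Mapt.

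In control replicate 5, the V3 and p3 marker sum was 99.7 CPM against 27.6 in the next control, of which Nkx2-9 alone gave 84.5 CPM while Sim1 of the same list stood at 0.148 CPM, the lowest of the 10 samples, and the endothelial sum was 3.25 against 1.52. The 3′ share was 67.8% for Tubb3, 21.9% for Mapt and 0% for Nefh, the last from 1 count. The first 87-base exon of Mapt was at 11.3% of its flanks there, from 3 counts.

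The long exon of Mapt was at 4.76% of its flanks in cdKO replicate 3, from 13 counts, and the second 87-base exon at 5.84% in cdKO replicate 2, from 4 counts.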

How the results depend on the processing

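None of the 10 genes passed the threshold in any of the 20 alternatives run. Over all genes, 1 passed with library size only, 1 without a filter, 1 over the last 1000 exonic bases, 3 by limma-voom, 19 by DESeq2, 0 to 4 when 1 sample was left out (4 without control replicate 5, 1 without cdKO replicate 5), and 4 without replicate 5 of both groups. Of 200 log2 fold changes recomputed for the 10 genes, 183 kept their sign and 17 reversed it. Dcx gave -0.093 with library size only. Nefm gave -0.014 over its last 1000 exonic bases and -0.018 on its highest bin, both of which are the bin shared with Nefl. Map2 gave 0.10 by limma-voom, 0.061 over its last 1000 bases and 0.10 with the replicate block. Leaving out 1 sample gave -0.22 to 0.38 for Dcx, -0.026 to 0.77 for Nefl, -0.05 to 0.66 for Nefm, 0.19 to 1.31 for Nefh, -0.28 to 0.13 for Map2 and 0.15 to 0.87 for Mapt. Without replicate 5 of both groups, chosen after seeing the data, Dcx was at -0.44, Nefm at -0.076, Map2 at -0.31 and Mapt at -0.14. For these reversals the cause was not tested.

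Of 60 exon differences (log2), 50 stayed on their side of the threshold with the same sign. Leaving out 1 sample gave -1.07 to -0.48 for the Map2 93-base exon (p = 0.0397 by the exact permutation test without cdKO replicate 2), -1.73 to -0.745 for the long Mapt exon (p = 0.0238 by the exact permutation test without cdKO replicate 3), -2.57 to -1.21 for the first 87-base exon, which had no cdKO count (-1.21 without control replicate 5), and -0.65 to 0.43 for the second 87-base exon. Without replicate 5 of both groups these were -0.36, -0.73, -1.27 and 0.62. With the replicate number as a replicate block, 0 genes passed and 462 had an unadjusted p under 0.05, against 888 without it, and it changed no call among the 10 genes. The numbers did not pair the samples: same-numbered deviations correlated at 0.09, -0.32, 0.17, 0.43 and 0.36, and 2 of 5 control samples correlated best with their own number. The 5 samples a group, a common biological coefficient of variation of 0.54 and low exon counts limit which differences could be detected.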
